A study of Mus musculus with 2 samples.

Results

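The genes described here are Ctsb, Ctsc, Ctsd, Ctsk, Ctsl, Ctss, Ctsz, Lgmn and Cst3, which encode cathepsins B, C, D, K, L, S and Z, legumain and cystatin C. They were chosen by symbol, each matched 1 row, and together they are 9 of the 31053 genes in the table of counts. Tumors came from LLC cells, a line of mouse lung carcinoma cells, placed under the skin of C57BL/6 mice aged 8 to 12 weeks that were Smad3-wildtype (Smad3+/+, called Smad3-WT) or Smad3-deficient (Smad3-/-, called Smad3-KO). The carcinoma cells kept their own Smad3 in both groups, and the deficient mice lacked Smad3 in every host cell, not only in neutrophils. CD11b+Ly6G+ cells were sorted from pooled tumors of each genotype as tumor-associated neutrophils (TANs), and 1 single-cell library with a 5′ kit was made per genotype.

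Cathepsins are proteases that work mainly in the acid interior of the lysosome, where they break down proteins delivered by endocytosis, phagocytosis and autophagy. Most of the genes here encode cysteine cathepsins, Ctsd encodes an aspartic protease, and legumain is a cysteine protease of another family that cuts after asparagine and processes several cathepsins. In build GRCm38 Ctsk (chr3:95499256-95509362) and Ctss (chr3:95526786-95556403) lie near each other on the plus strand, and Ctsb (chr14:63122462-63145923) and Ctsc (chr7:88278085-88310888) are also on the plus strand. Ctsd (chr7:142375911-142388038), Ctsl (chr13:64359337-64370890), Ctsz (chr2:174427493-174439039), Lgmn (chr12:102394084-102439813) and Cst3 (chr2:148871722-148875692) lie on the minus strand. Cystatin C is a small secreted protein that blocks cysteine cathepsins and, at a separate site, legumain. Macrophages and dendritic cells use these enzymes to degrade what they take up and to prepare antigens for MHC class II, and in neutrophils cathepsin C is known for activating the serine proteases of the granules while these are made in the bone marrow.

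Of the 9 genes, 8 had an entry in the RefSeq promoter table, with 9 windows of 250 bases before the start of transcription (build GRCm38.p6), and Ctsb had none. Each window was searched on both strands for the letters CACGTG, an E-box bound by TFEB and related regulators of lysosomal genes, for GAGGAAGT, a form of the PU.1 site, for TGACTCA, the AP-1 site, and for GTCTAGAC, the palindrome bound by Smad proteins. CACGTG occurred in windows of 3 genes, with 2 copies for Ctsd and 1 copy each for Ctsl and Lgmn, against 6.02% of 32851 promoters. The other Lgmn window, chr12:102439729-102439978, had no match. The Ctsl window, chr13:64370521-64370770, and the Lgmn window with the E-box lie inside the gene spans given above. The Ctsd window, chr7:142387828-142388077, lies partly inside the span of Ctsd, with 1 of its 2 copies in that part. The Cst3 window and the other Lgmn window also lie partly inside their genes. GAGGAAGT occurred 1 time, in the window of Ctsc, against 2.44% of promoters. TGACTCA, in 4.46% of promoters, and GTCTAGAC, in 0.167%, were in none of the 9 windows. These matches are descriptions of letters and not binding sites. Below are 4 of the 5 windows that overlap no annotated exon, those of the genes that divide the cell classes most clearly, 5′ to 3′ on the strand of the gene, with matched letters in capitals. Ctsc, plus strand, chr7:88277835-88278084, has the PU.1 letters in reverse. Lgmn, minus strand, chr12:102439093-102439342, has the E-box. Ctss, plus strand, chr3:95526536-95526785, and Ctsk, plus strand, chr3:95498960-95499209, have no match.
Ctsc: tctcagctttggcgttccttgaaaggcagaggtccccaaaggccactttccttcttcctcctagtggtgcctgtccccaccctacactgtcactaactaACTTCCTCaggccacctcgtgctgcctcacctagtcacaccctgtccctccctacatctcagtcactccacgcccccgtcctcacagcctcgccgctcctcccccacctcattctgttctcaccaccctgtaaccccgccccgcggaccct
Lgmn: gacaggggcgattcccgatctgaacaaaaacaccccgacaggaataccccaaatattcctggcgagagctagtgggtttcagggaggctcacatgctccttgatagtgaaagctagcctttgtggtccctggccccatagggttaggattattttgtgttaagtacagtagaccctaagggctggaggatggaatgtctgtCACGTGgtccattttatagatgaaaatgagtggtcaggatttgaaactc
Ctss: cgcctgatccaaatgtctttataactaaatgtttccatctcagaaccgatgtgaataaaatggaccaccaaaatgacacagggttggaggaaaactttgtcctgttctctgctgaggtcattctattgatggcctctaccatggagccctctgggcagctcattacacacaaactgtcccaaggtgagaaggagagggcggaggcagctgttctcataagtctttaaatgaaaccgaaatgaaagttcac
Ctsk: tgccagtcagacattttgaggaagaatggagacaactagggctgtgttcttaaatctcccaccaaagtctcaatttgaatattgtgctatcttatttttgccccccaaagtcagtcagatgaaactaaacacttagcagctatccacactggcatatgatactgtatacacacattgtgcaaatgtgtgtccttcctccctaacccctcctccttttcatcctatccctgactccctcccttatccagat

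Sequencing gave 4116 barcodes with 23951400 UMIs in all for Smad3-WT, and 2514 with 4214290 for Smad3-KO, where a UMI stands for 1 captured RNA molecule. After the filter on quality, 3520 Smad3-WT and 2433 Smad3-KO cells remained, and 24 barcode sequences were shared between their libraries. The UMI limit removed 382 Smad3-WT barcodes and 0 Smad3-KO barcodes. Levels are counts per 1000000 (CPM): the UMIs of a gene summed over the cells of a class and library, per 1000000 UMIs of these cells. In neutrophil-like cells Smad3 itself had 31 UMIs (19.5 CPM) in the Smad3-WT and 225 (171 CPM) in the Smad3-KO library, but tags near the 5′ end need not fall in the deleted part, so this checks nothing about the genotype. Cells fell into 14 clusters, made without the 9 genes or other lysosomal genes, and were named from marker genes. Despite the sort, 51.7% of Smad3-WT and 44.3% of Smad3-KO cells were neutrophil-like. All 9 neutrophil markers were detected in them and in most other classes. Their summed level was 87292 CPM in Smad3-WT and 94330 in Smad3-KO neutrophil-like cells, against 5774 and 7930 in macrophage or monocyte-like cells. Among the cells that were not neutrophil-like, B cell-like cells numbered 3 in Smad3-WT and 569 in Smad3-KO, T or NK-like cells 62 and 462, macrophage or monocyte-like cells 1089 and 118, and LLC carcinoma-like cells 399 and 25. A UMI is counted once whatever the length of the transcript, so levels of different genes can be set side by side without a length correction. Intervals in parentheses are exact 95% intervals that cover counting error only. With 1 library per genotype no test of genotype was possible, and a difference between genotypes cannot be told apart from a difference between the libraries.

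The summed level of cathepsin and legumain transcripts was highest in macrophage or monocyte-like cells, and the level of cystatin C transcripts in dendritic-like cells. Summed over the 8 protease genes, the level in Smad3-WT was 8859 CPM (8772 to 8946) in macrophage or monocyte-like cells, 4415 in fibroblast-like, 2605 in dendritic-like, 2431 in T or NK-like, 2363 in neutrophil-like and 1769 in LLC carcinoma-like cells. The interval of the T or NK-like level overlapped those of the dendritic-like and the neutrophil-like level, and the macrophage or monocyte-like level lay above all others. Macrophage markers were also found in the other classes. Their median level over that in macrophage or monocyte-like cells was 0.358 in fibroblast-like and 0.168 in T or NK-like cells of Smad3-WT. It was 0.0992 in LLC carcinoma-like, 0.0261 in neutrophil-like and 0.0239 in dendritic-like cells. The part of macrophage RNA in the summed protease levels was not tested. In Smad3-KO the macrophage or monocyte-like level was again the highest at 11551. Neutrophil-like cells at 3000.2, LLC carcinoma-like cells at 2983, from 25 cells, and fibroblast-like cells at 2929 followed, with intervals that overlapped.

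**Figure D1:**
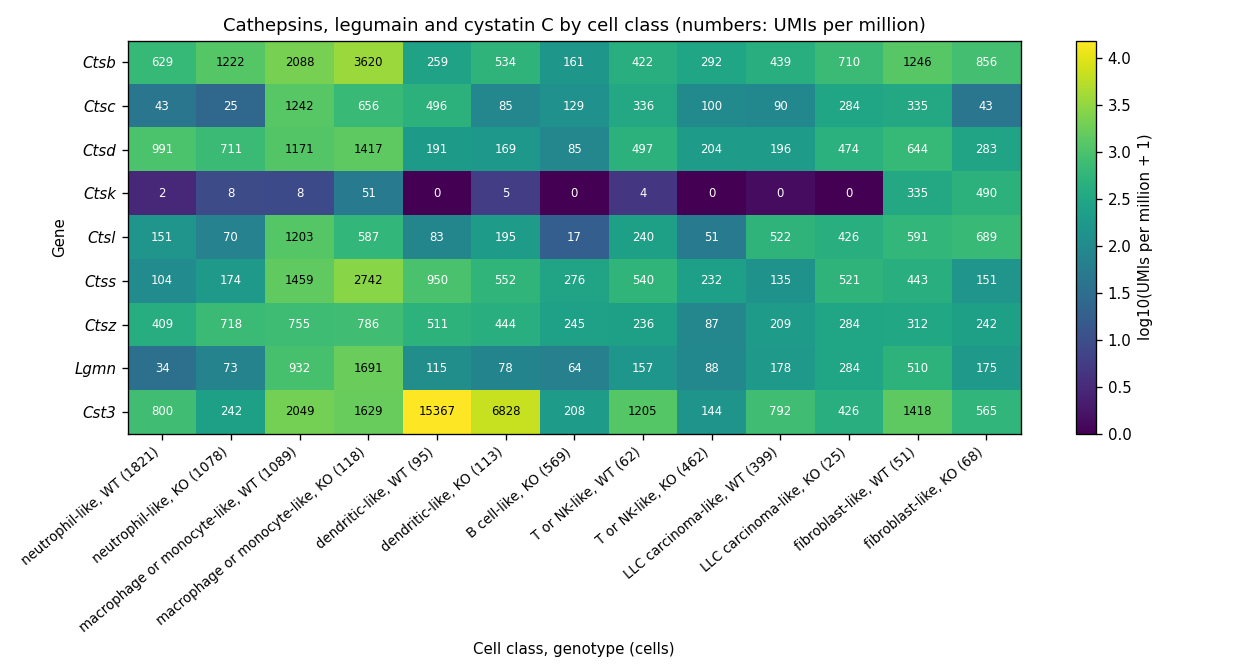
Level of each gene (rows) in each cell class and genotype with at least 20 cells (columns, number of cells in parentheses), in CPM, with color on a log10 scale. Macrophage or monocyte-like cells are high for most proteases, Ctsk is high only in the fibroblast-like columns at 335 and 490, and Cst3 is highest in dendritic-like cells at 15367 and 6828.

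In the Smad3-WT macrophage or monocyte-like cells, Ctsb led the proteases at 2088 CPM (2047 to 2131). Ctss, an elastin-cutting cathepsin known for removing the invariant chain from MHC class II, followed at 1459, then Ctsc at 1242, Ctsl at 1203 and Ctsd at 1171. The intervals of Ctsc, Ctsl and Ctsd overlapped from each to the next. Lgmn stood at 932, Ctsz, a carboxypeptidase, at 755, and Ctsk at 7.72 from 35 UMIs. Cst3 reached 2049, within the interval of Ctsb, so transcripts of the inhibitor were about as abundant as those of the leading protease. Shares of cells with a UMI ran from 71.9% for Lgmn to 94.0% for Cst3, apart from 2.02% for Ctsk, at a median of 3375 UMIs per cell. After each cell was thinned to 500 UMIs these shares were 30.4% for Lgmn and 55.6% for Cst3.

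Neutrophil-like cells held a narrower set of these transcripts. In Smad3-WT, Ctsd was the highest at 991 (942 to 1041), followed by Cst3 at 800.2 (757 to 845), Ctsb at 629, Ctsz at 409, Ctsl at 151, Ctss at 104, Ctsc at 43.4, Lgmn at 33.9 and Ctsk at 1.89 from 3 UMIs. In Smad3-KO the order began with Ctsb at 1222 (1163 to 1283), with Ctsz at 718 and Ctsd at 711 next, whose intervals overlapped, and Cst3 after them at 242. Ctsc, whose product activates granule proteases, was thus near the bottom in both libraries. Of the serine proteases that cathepsin C activates, Elane, Ctsg, Gzma and Gzmb had 0 UMIs in neutrophil-like cells of either library and Prtn3 had 2 in each. Ctsd was detected in 47.6% of Smad3-WT cells at a median of 740 UMIs per cell, and Ctsb in 63.4% of Smad3-KO cells at a median of 1015.5. Thinned to 500 UMIs, the share with a Ctsb UMI was 23.7% for Smad3-WT against 41.6% for Smad3-KO, and the share with a Cst3 UMI 26.7% against 9.28%.

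Between the classes of Smad3-WT, the summed protease level was 3.75 times as high in macrophage or monocyte-like as in neutrophil-like cells (3.63 to 3.88), and Cst3 2.56 times (2.41 to 2.72). Of the 9 genes, 7 were at least 2-fold higher in the macrophage or monocyte-like cells and 0 were 2-fold lower, and 47.4% of 9420 genes were at least 2-fold higher in the same comparison. The median ratio was 4.10 over the 9 genes and 1.88 over all genes. Ctsc (28.6-fold), Lgmn (27.4-fold) and Ctss (13.98-fold) differed most, then Ctsl at 7.97 and Ctsk at 4.10 (1.29 to 20.8). Ctsb stood at 3.32, Ctsz at 1.85 and Ctsd at 1.18 (1.12 to 1.25), the gene with the most similar levels in the 2 classes. In Smad3-KO, 43.3% of 5142 genes and again 7 of the 9 were at least 2-fold higher in the macrophage or monocyte-like cells, and Ctsz at 1.09 (0.943 to 1.26) had an interval that included 1. The classes were built from other genes of the same cells, so these ratios are descriptions with no test.

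RNA of macrophages can reach the barcode of another cell, so each gene was set beside 10 macrophage markers by its level in neutrophil-like cells over that in macrophage or monocyte-like cells. All 10 markers were detected in neutrophil-like cells of both libraries, with summed levels of 299 CPM in Smad3-WT and 220 in Smad3-KO against 9748 and 9942 in macrophage or monocyte-like cells. Their quotients had a median of 0.0261 in Smad3-WT, from 0.0143 for Pf4 to 0.346 for Adgre1, and of 0.0166 in Smad3-KO, from 0.00516 for Mrc1 to 0.154 for Csf1r. Ctsc at 0.0349 and 0.0381 and Lgmn at 0.0364 and 0.0430 lay inside the range of the markers in both libraries, above the median marker and below Adgre1 and Csf1r. Ctss at 0.0715 and 0.0633 and Ctsl at 0.125 and 0.119 also lay inside it, and the part of macrophage RNA in these levels was not tested. Ctsd at 0.846 and 0.502 and Ctsz at 0.542 and 0.914 lay above every marker in both libraries. Ctsb at 0.301 lay below Adgre1 alone in Smad3-WT and at 0.338 above every marker in Smad3-KO. Cst3 lay above every marker in Smad3-WT at 0.391 and below Adgre1 and Csf1r in Smad3-KO at 0.148. Relative to dendritic-like cells, the Cst3 quotient was 0.0521 in Smad3-WT and 0.0354 in Smad3-KO. Among the dendritic markers, Cd74, H2-Aa and H2-Ab1, only Xcr1 and Clec9a lay above Cst3 in Smad3-WT, from 2 and 3 UMIs. In Smad3-KO only Cd74 did, at 0.0376. The part of dendritic cell RNA was not tested.

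**Figure D2:**
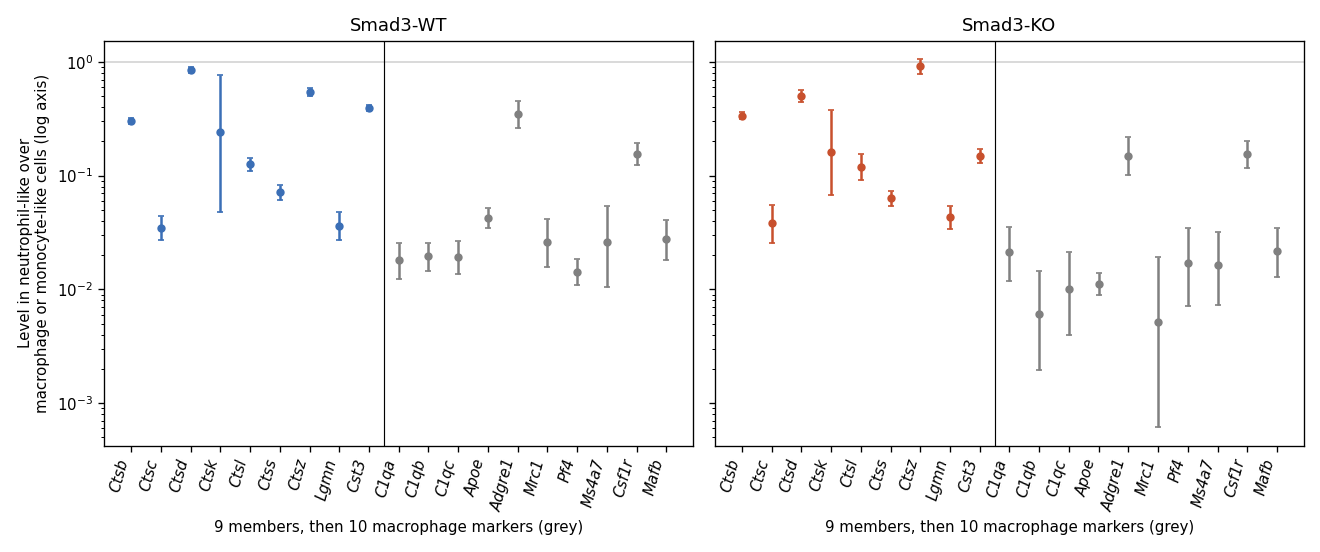
Level in neutrophil-like cells divided by the level in macrophage or monocyte-like cells (log axis), for the 9 genes and for 10 macrophage markers in grey, by genotype. Points are quotients and bars exact 95% counting intervals. Ctsd and Ctsz lie above all grey points in both panels, and Ctsc and Lgmn lie among them.

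The neutrophil-like class was made of different clusters in the 2 libraries. Cluster 1, led by Mmp9, Il1r2 and G0s2, held 1362 Smad3-WT and 132 Smad3-KO cells. Cluster 3, led by Il1a, Tnfaip3 and Lcn2, held 13 and 782, cluster 7, led by Hcar2, Ddit3 and Hilpda, 308 and 82, cluster 9, led by interferon-induced genes such as Ifit3, 138 and 12, and cluster 13, led by the granule genes Ngp, Camp and Ltf, 0 and 70. Within Smad3-WT, Ctsb was 445 CPM in cluster 1, 659 in cluster 9 and 1468 in cluster 7, and Ctsz was 301, 587 and 812. Cst3 went the other way, at 926 in cluster 1, 788 in cluster 9 and 237 in cluster 7, while Ctsd was 906, 948 and 1422. Within Smad3-KO, cluster 3 held Ctsb at 1339, Ctsz at 834, Ctsd at 745 and Cst3 at 179, and the immature cluster 13 held Ctsb at 362, Ctsd at 350, Cst3 at 344 and Ctsz at 163. Cluster 7 of both libraries and cluster 3 of Smad3-KO were therefore high for Ctsb and Ctsz and low for Cst3, and cluster 1 of both libraries was the opposite.

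**Figure D3:**
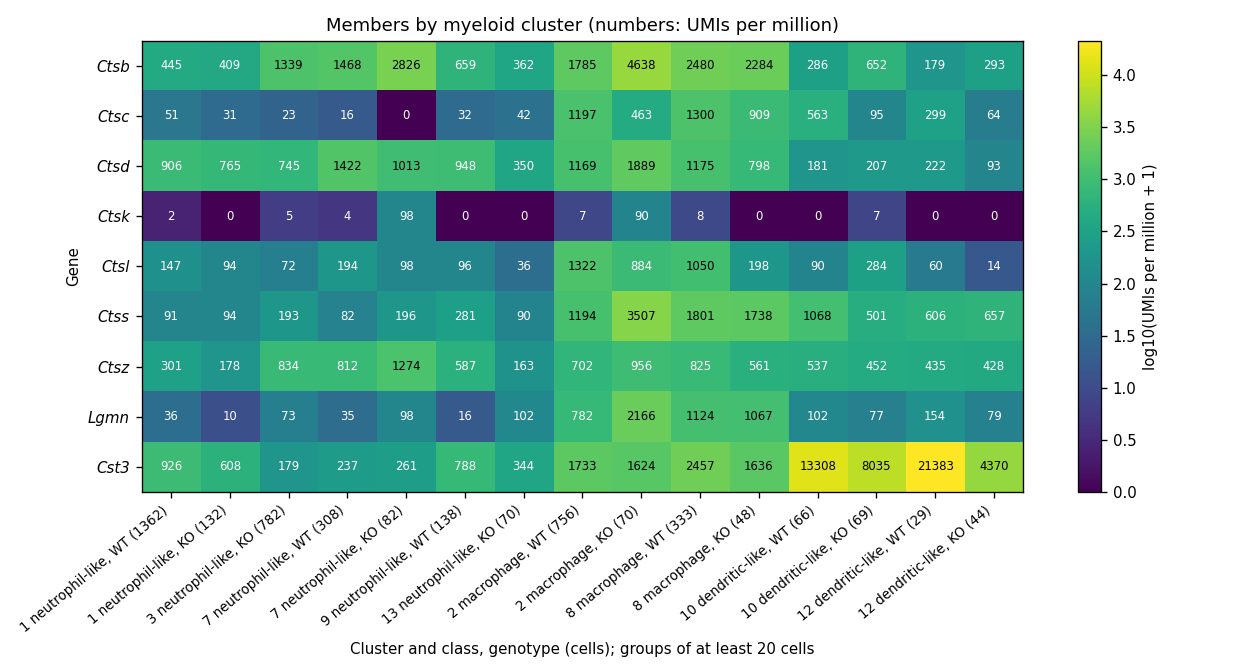
Level of each gene (rows) in the neutrophil-like, macrophage or monocyte-like and dendritic-like clusters by genotype (columns, cells in parentheses; groups of at least 20 cells), in CPM, with color on a log10 scale. Ctsb and Ctsz are high and Cst3 is low in neutrophil-like clusters 3 and 7, and Cst3 peaks in dendritic-like cluster 12 of Smad3-WT at 21383.

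Between the genotypes, neutrophil-like cells of Smad3-KO held more transcript of most cysteine proteases and less cystatin C. Ctss, Lgmn, Ctsl and Ctsc lay inside the range of the macrophage markers in both libraries. Their ratios in macrophage or monocyte-like cells were 1.88, 1.81, 0.488 and 0.528. The part of macrophage RNA in their neutrophil-like ratios was not tested. Ctsb was 629 CPM in Smad3-WT and 1222 in Smad3-KO, a ratio of 1.94 (1.80 to 2.11), Ctsz 409 and 718, a ratio of 1.75 (1.59 to 1.94), Ctss 104 and 174, a ratio of 1.66 (1.36 to 2.04), and Lgmn 33.9 and 72.8, a ratio of 2.14 (1.52 to 3.05). Ctsk had 3 and 11 UMIs, a ratio of 4.42 (1.17 to 24.7). Lower in Smad3-KO were Ctsl, 151 and 69.7, at 0.462 (0.359 to 0.590), Ctsc, 43.4 and 25.0, at 0.577 (0.369 to 0.885), and Ctsd, 991 and 711, at 0.718 (0.661 to 0.779). Cst3 was 800.2 in Smad3-WT and 242 in Smad3-KO, a ratio of 0.302 (0.266 to 0.342), the lowest of the 9. The 8 proteases summed to 2363 and 3000.2, a ratio of 1.27 (1.21 to 1.33), and the 7 cysteine proteases to 1372 and 2289, a ratio of 1.67 (1.58 to 1.76).

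Of the 8 genes with at least 20 UMIs over both libraries, 1 (Lgmn) was at least 2-fold higher and 2 (Ctsl and Cst3) at least 2-fold lower in Smad3-KO neutrophil-like cells, where 7.6% and 17.6% of 6040 genes were. The median ratio was 1.19 over these 8 and 0.799 over all genes, so the median gene lay below 1 on this scale. With median-of-ratios scaling, whose size factor for Smad3-KO over Smad3-WT was 0.795 in this class (-0.33 on the log2 scale), the Cst3 ratio was 0.380 and the summed protease ratio 1.60. Without the immature cluster 13 the Cst3 ratio was 0.284 and the Ctsb ratio 2.14. Within cluster 1 the direction turned for some genes: Ctsb was 445 in Smad3-WT and 409 in Smad3-KO, a ratio of 0.918 (0.645 to 1.27), and Ctsz 301 and 178, a ratio of 0.592 (0.341 to 0.961). Within cluster 7 Ctsb was 1468 and 2826, at 1.92 (1.60 to 2.31), and Ctsz 812 and 1274, at 1.57 (1.19 to 2.04). Cst3 was 926 and 608 in cluster 1, at 0.657 (0.495 to 0.856), and 237 and 261 in cluster 7, at 1.10 (0.593 to 1.94). The 8 proteases summed to 1978 and 1583 in cluster 1, at 0.800 (0.674 to 0.944), opposite to the whole class, and to 4032 and 5602 in cluster 7, at 1.39 (1.23 to 1.57). Cluster 1 thus had the lower Cst3 without the higher Ctsb, cluster 7 the higher Ctsb without the lower Cst3, and the clusters that hold most cells differ between the libraries, 1 in Smad3-WT and 3 in Smad3-KO.

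**Figure D4:**
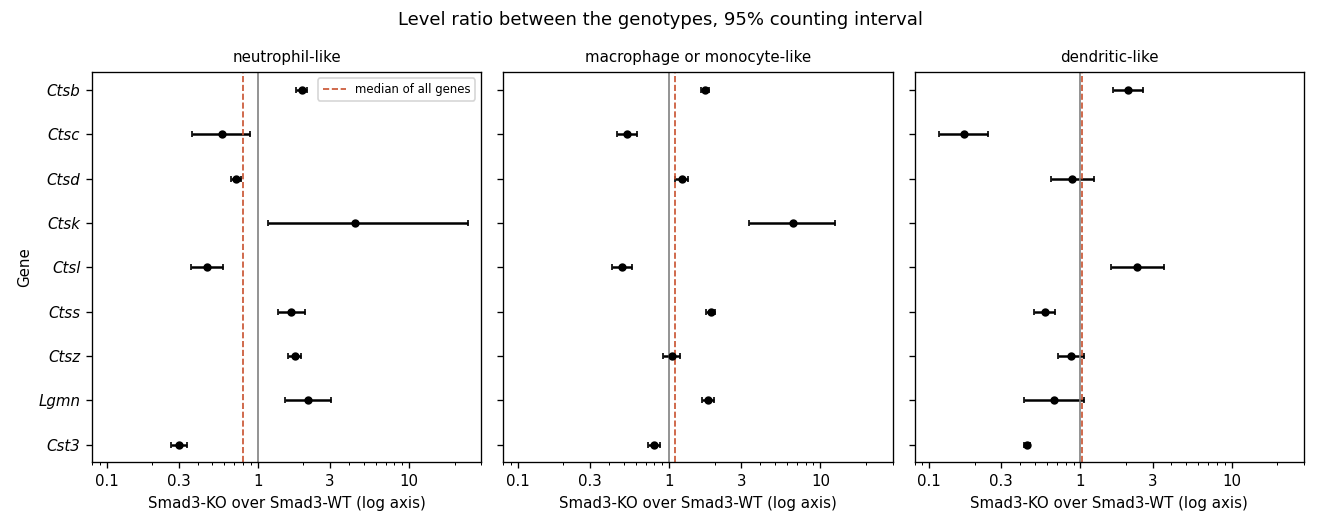
Ratio of the level in Smad3-KO to that in Smad3-WT (log axis) for each gene in 3 myeloid classes. Points are ratios, bars exact 95% counting intervals from 1 library per genotype, the solid line marks 1 and the dashed line the median over all genes of the class. Genes with fewer than 10 UMIs in a class are not drawn. Cst3 lies below 1 and Ctsb above 1 in all 3 panels, although in macrophage or monocyte-like cells both turned at resolution 0.1 (1.44 and 0.898). Among clusters of these classes with at least 20 cells of each library, Cst3 turned in neutrophil-like cluster 7 (1.10). Ctsb turned in neutrophil-like cluster 1 (0.918) and macrophage or monocyte-like cluster 8 (0.921). The intervals of these within-cluster ratios included 1.

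In macrophage or monocyte-like cells (1089 Smad3-WT and 118 Smad3-KO cells, most of them in cluster 2 in both libraries) the 8 proteases summed to 8859 and 11551 CPM, a ratio of 1.30 (1.26 to 1.35). Ctsb was 2088 in Smad3-WT and 3620 in Smad3-KO, at 1.73 (1.63 to 1.85), Ctss 1459 and 2742, at 1.88 (1.74 to 2.02), and Lgmn 932 and 1691, at 1.81 (1.65 to 1.99). Ctsc, 1242 and 656, at 0.528 (0.455 to 0.610), and Ctsl, 1203 and 587, at 0.488 (0.417 to 0.568), were lower in Smad3-KO. Ctsz was 755 and 786, at 1.04 (0.906 to 1.19), and the interval included 1. Ctsk was 7.72 and 51.2, from 35 and 15 UMIs, at 6.63 (3.37 to 12.5). Cst3 was 2049 and 1629, at 0.795 (0.724 to 0.872). Single macrophage markers of the class differed between Smad3-WT and Smad3-KO in both directions. Apoe was 1445 and 5799 CPM and Adgre1 113 and 242, while Pf4 was 2643 and 359 and C1qb 1711 and 622. Whether the makeup of the class accounts for its ratios was not tested. Over the 9 genes, 1 (Ctsk) was at least 2-fold higher and 1 (Ctsl) at least 2-fold lower, against 13.8% and 9.75% of 9196 genes, and the median ratios were 1.21 and 1.09.

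These ratios differed between the 2 clusters of the class. The 8 proteases summed to 8158 CPM in Smad3-WT and 14593 in Smad3-KO in cluster 2, at 1.79 (1.71 to 1.87), and to 9763 and 7554 in cluster 8, at 0.774 (0.724 to 0.826), so the higher sum in Smad3-KO did not hold in cluster 8. In cluster 2, led by Ppbp, Ccl24 and Ms4a4a and with the monocyte markers Ccr2 and Vcan, Ctsb was 1785 in Smad3-WT and 4638 in Smad3-KO, Ctss 1194 and 3507, Lgmn 782 and 2166 and Ctsc 1197 and 463. In cluster 8, led by Ccl8, Retnla and C1qa, Ctsb was 2480 and 2284, Ctss 1801 and 1738 and Lgmn 1124 and 1067, with intervals of the ratio that included 1, while Ctsl was 1050 and 198. Cst3 was 1733 and 1624 in cluster 2, at 0.937 (0.826 to 1.0598), and 2457 and 1636 in cluster 8, at 0.666 (0.576 to 0.765). Ctsc and Ctsl were lower in Smad3-KO in both clusters. The Smad3-KO values rest on few cells: 1 cell held 13.2% of the Ctsb UMIs, and 12 cells held 62.2% of the Ctsd UMIs. The median over cells was 1297 CPM in Smad3-WT and 1972 in Smad3-KO for Ctsb, and 818 and 660 for Ctsd, the reverse of the pooled Ctsd levels of 1171 and 1417. The lower Cst3 in Smad3-KO did not hold when the class took in dendritic-like cells at a coarser resolution of 0.1 (1.44) or without a filter on cells (1.74), or with 30 principal components (1.0045), and the summed protease ratio was then 0.689, 0.821 and 1.43.

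Dendritic-like cells (95 Smad3-WT and 113 Smad3-KO cells) carried the highest Cst3 level of any class. Cst3 was 15367 CPM in Smad3-WT and 6828 in Smad3-KO, a ratio of 0.444 (0.425 to 0.464), and stood among the 10 leading genes of cluster 10 although it was not used to make the clusters. In cluster 10 it was 13308 and 8035 and in cluster 12, led by Ccl5, Ccl22 and Fscn1, 21383 and 4370. Ctsc was 496 in Smad3-WT and 84.6 in Smad3-KO, at 0.171 (0.117 to 0.243), and was lower in both clusters. Ctss was 950.1 and 552, at 0.581 (0.494 to 0.683). Ctsb was 259 and 534, at 2.06 (1.64 to 2.60), and Ctsl 82.6 and 195, at 2.36 (1.59 to 3.56). The higher Ctsl did not hold in cluster 12, at 0.239 (0.0242 to 1.26), where Ctss stood at 1.085 (0.787 to 1.49997) and Ctsb at 1.63 (0.944 to 2.91). Of 8 genes measured, 2 were at least 2-fold higher and 2 at least 2-fold lower, against 11.4% and 8.53% of 5242 genes, and the median ratios were 0.771 and 1.02.

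The makeup of these cells differed between the libraries. Siglech, a marker of plasmacytoid dendritic cells, was 49.6 CPM in cluster 10 of Smad3-WT and 505 in Smad3-KO, Xcr1 and Clec9a, markers of cross-presenting dendritic cells, were 14.6 and 154, and 26.3 and 186, and Cd209a was 692 and 308. In the cells with no Siglech UMI, 91 and 86 in number, Cst3 was 15978 in Smad3-WT and 7642 in Smad3-KO. In those with a UMI of Fscn1, a marker of mature dendritic cells, it was 20265 in 26 cells and 5879 in 43 cells. In those with Siglech, 4 and 27 cells, it was 1110.0 and 4352. Ctsl turned with Siglech: in the cells without it Ctsl was 47.6 in Smad3-WT and 25.0 in Smad3-KO, a ratio of 0.525, and 75 of the 83 Smad3-KO Ctsl UMIs came from the 27 cells with Siglech. Ctsb was 240.3 and 325 in the cells without Siglech, at 1.35. The largest cell held 6.18% of the Smad3-WT Cst3 UMIs and 10.8% of those of Smad3-KO, and the median over cells was 9169 and 1991 CPM. Whether makeup accounts for the difference was not tested beyond these values.

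Outside the myeloid classes, Ctsk, an osteoclast and fibroblast protease that cuts collagen, was high only in fibroblast-like cells, with 115 UMIs in 51 Smad3-WT cells and 182 in 68 Smad3-KO cells, 335 and 490 CPM. The ratio was 1.46 (1.15 to 1.86), with more Ctsk in Smad3-KO. The largest cell held 15.7% of the Smad3-WT and 21.4% of the Smad3-KO Ctsk UMIs of this class. Summed fibroblast markers of the class were also higher in Smad3-KO, at 40532 CPM in Smad3-WT and 58916 in Smad3-KO. Whether the Ctsk ratio follows the part of fibroblast RNA in the class was not tested. Fibroblast-like cells held 73.7% of all Ctsk UMIs of the Smad3-WT and 86.7% of those of the Smad3-KO library. In the same cells Ctsb was 1246 and 856, Ctsl 591 and 689, Cst3 1418 and 565 and Ctsc 335 and 43.1, and 1 Smad3-WT cell held 34.1% of the Cst3 UMIs. Of the 9 genes 0 were at least 2-fold higher and 5 at least 2-fold lower in Smad3-KO, against 8.54% and 7.13% of 4965 genes, and the median ratios were 0.439 and 0.998. Macrophage markers moved with this: their median level in fibroblast-like cells over that in macrophage or monocyte-like cells was 0.358 in Smad3-WT (0.259 to 0.426, the range over 10 markers) and 0.0468 in Smad3-KO (0.00917 to 0.170). Their part in the lower levels was not tested.

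T or NK-like cells showed the same combination. All 8 measured genes were lower in Smad3-KO, with 6 at least 2-fold lower and 0 higher, against 12.7% and 10.9% of 5977 genes, and median ratios of 0.390 and 0.932. Cst3 was 1205 in Smad3-WT and 144 in Smad3-KO, at 0.120 (0.0957 to 0.149), and Ctsl 240 and 50.6, at 0.211. The makeup of this class differed between the libraries. Summed NK cell markers were 1248 CPM in Smad3-WT and 168 in Smad3-KO, T cell markers 2814 and 4045, and monocyte markers 1934 and 593. The macrophage-marker quotient was 0.168 (0.0844 to 0.375) in the 62 Smad3-WT cells and 0.0504 (0.0123 to 0.0978) in the 462 Smad3-KO cells, and the Cst3 quotient was 0.588 and 0.0885. Set against dendritic-like cells, the Cst3 quotient was 0.0784 in Smad3-WT and 0.0211 in Smad3-KO, while that of Cd74 was 0.130 and 0.0687, of H2-Aa 0.140 and 0.0453 and of H2-Ab1 0.152 and 0.0617. That of Ccr7, which T cells also express, was 0.120 and 0.729. Cd209a stood at 0.0624 and 0.0180 and Fscn1 at 0.0725 and 0.0171, and Xcr1, Clec9a and Siglech had 0 UMIs in T or NK-like cells of either library. The part of macrophage or dendritic cell RNA, of mixed droplets or of the makeup of the class was not tested. In the 569 Smad3-KO B cell-like cells Ctss was 276 CPM, Ctsz 245, Cst3 208, Ctsb 161 and Ctsc 129, and Ctsk had 0 UMIs, which allows up to 3 UMIs. Relative to macrophage or monocyte-like cells Ctsz stood at 0.312, Ctsc at 0.197, Cst3 at 0.128 and Ctss at 0.101 there. Ctsd stood at 0.0596 and Ctsb at 0.0443. All of these lay above the highest of the 10 macrophage markers at 0.0412. Lgmn at 0.0381, Ctsl at 0.0288 and Ctsk lay below it. Summed neutrophil markers in the B cell-like cells were 5717 CPM, against 94330 in neutrophil-like cells of Smad3-KO. The part of RNA of other cells in the B cell-like levels was not tested. In the 399 LLC carcinoma-like cells of Smad3-WT, Cst3 was 792, Ctsl 522, Ctsb 439 and Ctsk 0.403 from 2 UMIs. The 25 cells of Smad3-KO gave 9 UMIs of Cst3 and 15 of Ctsb.

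Cystatin C transcripts outnumbered those of the cysteine proteases in dendritic-like cells and were fewer in every other class. Per UMI of the 7 cysteine proteases, Smad3-WT cells held 6.37 UMIs of Cst3 (5.98 to 6.79) in the dendritic-like class, 0.623 in the T or NK-like, 0.583 (0.544 to 0.625) in the neutrophil-like, 0.503 in the LLC carcinoma-like, 0.376 in the fibroblast-like and 0.267 (0.260 to 0.273) in the macrophage or monocyte-like class. In Smad3-KO the dendritic-like class was again first with 3.61, and the neutrophil-like class was last with 0.106 (0.0938 to 0.119), below the macrophage or monocyte-like class at 0.161 (0.146 to 0.177). The neutrophil-like value thus went from above to below the macrophage or monocyte-like value. By cluster it was 0.863 in Smad3-WT and 0.744 (0.520 to 1.058) in Smad3-KO for cluster 1, 0.0908 and 0.0569 (0.0321 to 0.0941) for cluster 7, and 0.0705 for the Smad3-KO cells of cluster 3. Clusters 1 and 7 lay far apart within each library, while the intervals of each overlapped between the libraries. These are ratios of transcripts, and protein or enzyme activity was not measured.

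**Figure D5:**
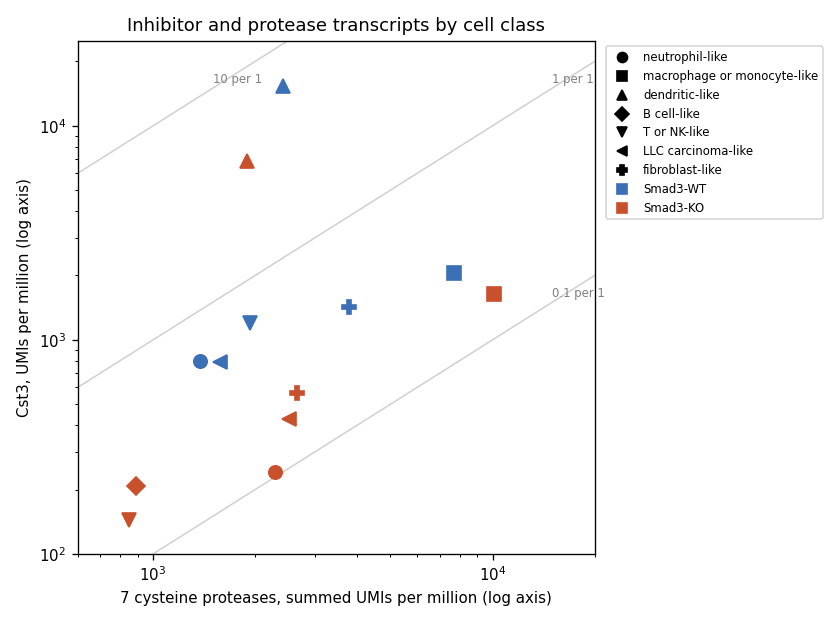
Cst3 level against the summed level of 7 cysteine proteases, both in CPM on log axes, for each cell class (marker shape) and genotype (color) with at least 20 cells. Grey lines mark 0.1, 1 and 10 Cst3 UMIs per protease UMI. Dendritic-like cells lie near the top at 6.37 and 3.61, and the Smad3-KO neutrophil-like point lies at 0.106.

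Over all kept cells the order of the libraries was the reverse of that in neutrophil-like and in macrophage or monocyte-like cells taken whole. The 8 proteases summed to 4606 CPM in Smad3-WT and 2678 in Smad3-KO, a ratio of 0.581 (0.570 to 0.593), below 1 although the ratio was above 1 in neutrophil-like and in macrophage or monocyte-like cells as whole classes. Within these classes it was also below 1 in neutrophil-like cluster 1 (0.800) and in macrophage or monocyte-like cluster 8 (0.774). Among the other classes the summed ratio was below 1 in dendritic-like (0.791), T or NK-like (0.434) and fibroblast-like (0.663) cells. It was above 1 in LLC carcinoma-like cells, at 1.69 (1.29 to 2.16), from 63 UMIs in 25 Smad3-KO cells. In these 25 cells summed LLC carcinoma markers were 947 CPM, endothelial markers 568 and T cell markers 521. In the 399 Smad3-WT cells the same sums were 1399, 9.26 and 8.05. The part of RNA of other cells in this ratio was not tested. With 3 Smad3-WT cells, the summed ratio was 1.56 in B cell-like cells, with an interval that included 1. Macrophage or monocyte-like cells were 30.9% of Smad3-WT cells and held 71.1% of the Ctsb and 85.5% of the Ctsc UMIs, against 4.85% of Smad3-KO cells, 29.4% and 39.8%. Of the UMIs of all genes, this class held 37.2% in Smad3-WT and 7.06% in Smad3-KO. Of the 9 genes, 1 (Ctsk, 12.8 and 50.6, at 3.95) was at least 2-fold higher and 3 (Ctsc, Ctsl and Lgmn) at least 2-fold lower over all cells, against 16.4% and 14.8% of 12612 genes. Neutrophil-like cells held 53.8% of the Ctsz and 52.8% of the Ctsd UMIs of Smad3-KO, against 11.8% and 19.0% in Smad3-WT. Their share of the UMIs of all genes was 31.8% in Smad3-KO and 13.1% in Smad3-WT. Dendritic-like cells of Smad3-WT and Smad3-KO were 2.70% and 4.64% of cells, with 3.78% and 10.3% of the UMIs of all genes. They held 31.6% and 68.7% of the Cst3 UMIs.

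The other cystatin family inhibitors examined were 9 genes, the intracellular stefins and also Cst6 and Cst7. Cstb, the most widespread, was 1789 CPM in Smad3-WT and 1528 in Smad3-KO neutrophil-like cells, at 0.854 (0.806 to 0.905), and Gm5483 3065 and 2454, so both exceeded Cst3 there. Of 7 measured, 3 were at least 2-fold higher and 1 at least 2-fold lower in Smad3-KO, against 7.6% and 17.6% of all genes. Stfa2 had 13 and 241 UMIs, at 22.4 (12.8 to 42.6), BC100530 55 and 631, at 13.8 (10.49 to 18.6), and Stfa1 127 and 3, at 0.0285 (0.00580 to 0.0852). The stefin A genes are near-identical copies that share reads, so the split among them is uncertain. In contrast to Cst3, 0 of 5 measured were at least 2-fold higher in macrophage or monocyte-like than in neutrophil-like cells of Smad3-WT and 4 were at least 2-fold lower, with a median ratio of 0.0743, against 47.4% and 11.8% of all genes.

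Genes for other lysosomal proteins moved in both directions between the genotypes. Of 29 measured genes for lysosomal membrane proteins and hydrolases, 3 were at least 2-fold higher and 1 at least 2-fold lower in Smad3-KO neutrophil-like cells, with a median ratio of 0.999, where 7.6% and 17.6% of all genes were and the median was 0.799. The same background holds for the other lists in this class. Highest among those with at least 50 UMIs was Acp5, a phosphatase of osteoclasts and macrophages, with 8 and 42 UMIs, at 6.33 (2.94 to 15.6). Lowest were Laptm5, a lysosomal membrane protein of blood cells, at 0.437 (0.389 to 0.490) and Asah1, acid ceramidase, at 0.574. Of 16 subunits of the proton pump that acidifies lysosomes, 0 were at least 2-fold higher and 2 at least 2-fold lower, with a median of 0.718, from 0.326 for Atp6v0d2 to 1.77 for Atp6v1a. Of 3 other cathepsins measured, 0 were past 2-fold in either direction, with Ctsa at 0.770 and Ctsh at 0.996. Of 6 genes for sorting and transcription factors, 1 was at least 2-fold higher and 1 at least 2-fold lower. Mitf, a relative of TFEB, was 0.241 (0.104 to 0.4996) and Tfeb 0.639 (0.412 to 0.978). All 4 MHC class II genes were above 1, with H2-Aa at 4.76 (3.83 to 5.98) and H2-Ab1 at 2.46. H2-Aa was 64.1 CPM in Smad3-WT and 305 in Smad3-KO neutrophil-like cells. It was 8733 and 10359 in dendritic-like cells and 7713 in Smad3-KO B cell-like cells. The part of B cell or dendritic cell RNA in these ratios was not tested. In macrophage or monocyte-like cells, 5 of 33 genes for membrane proteins and hydrolases were at least 2-fold higher and 0 lower, at a median of 1.18, against 13.8% and 9.75% of all genes and a median of 1.09, with Acp5 at 2.52. Of the pump subunits 1 was higher and 1 lower, with Atp6v0c at 0.457 (0.405 to 0.515), and H2-Aa stood at 3.93 and Tfeb at 2.67 (1.40 to 4.75). Summed B cell markers in this class were 34.4 CPM in Smad3-WT and 229 in Smad3-KO. The part of RNA of other cells in the H2-Aa ratio was not tested. Between the classes of Smad3-WT, 20 of 33 membrane and hydrolase genes but 1 of 16 pump subunits were at least 2-fold higher in macrophage or monocyte-like cells, with medians of 3.03 and 0.931, against 47.4% of all genes and a median of 1.88.

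The authors' own 13 clusters of all barcodes, deposited as averages, gave a second view of the same libraries. Scaled to CPM, Cst3 was highest in cluster 13, where all 8 dendritic markers led, at 9561, then in cluster 7, where all 10 macrophage markers led, at 3577. Ctsb was highest in cluster 12, with macrophage markers, at 2716, followed by 2071 in cluster 7 and 1879 in cluster 5, with monocyte markers. Lgmn was likewise highest in cluster 12 at 1513 and Ctsd there at 1632. Ctsc was highest in clusters 5 and 7 at 1160 and 1158, as was Ctsl at 1152 and 1037. Ctsk was highest in cluster 2 at 35.9. There 6 of 7 fibroblast markers led, but Krt8, a marker of LLC carcinoma cells, also stood at 238. Ctsz was highest in cluster 3 at 975, a cluster with S100a8 at 20740 and the highest Tnf of the 13 at 1082 but no neutrophil marker at 2-fold over the rest, where Cst3 was at its lowest, 93.4. Clusters 1 and 6, with all 9 neutrophil markers, held Cst3 at 459 and 959 and Ctsb at 570.3 and 278. Cluster 10, where 5 of 9 neutrophil markers led and the granule gene Ngp stood at 9194, held Cst3 higher, at 1548, and Ctsb at 484. No spread can be given for these averages.

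Over these 13 averages, the gene most correlated with each of the 9 was sought among 3534 genes with at least 1000 UMIs. The nearest to Ctsb was Arl8a (Pearson r = 0.917), a lysosomal GTPase, then Tpp1, a lysosomal peptidase (0.910), and Rbpj (0.891). Ctsc was nearest to Ctsa (0.947), another lysosomal protease, and Ms4a6c (0.944). Ctsd was nearest to Metrnl (0.968), Itgam (0.958), which encodes CD11b, and Trps1 (0.945), Ctsz to Rragc (0.891), Arl8a (0.854) and Ssr3 (0.851). Ctss was nearest to Jarid2 (0.942), Sdc3 (0.928) and Pld4 (0.915), and Lgmn to C3ar1, Tmem106a and Cd36 (0.951, 0.9504 and 0.949). Ctsk was nearest to the collagen genes Col1a2 (0.850) and Col1a1 (0.843) and to Saa3 (0.825), Ctsl to Ccl2 (0.955), Camk1 (0.926) and Emp1 (0.925). Cst3 was nearest to Naaa (0.936), Pgap2 (0.920) and Atox1 (0.918). Among the 9 genes themselves, Ctsc and Ctss (0.921) and Ctsc and Lgmn (0.863) were the closest pairs, and Ctsk and Cst3 (0.0770) the farthest. The 13 points come from the same 2 libraries and differ in depth, so these values describe the averages and carry no p.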

How the data were processed

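Single-cell libraries were made with a 10x 5′ kit from sorted cells of pooled tumors, 1 per genotype. The authors aligned reads to mm10 and counted UMIs with Cell Ranger 3.0.2, and the deposited matrix holds raw counts per gene and barcode of both libraries. The deposited averages, a signal scaled by the authors to 1311 UMIs per barcode (the median), cover 13 clusters and each genotype. The barcode suffix was tied to the genotype through these averages: recomputed means differed from the deposited values by at most 3.58e-08 over 19114 genes, and by up to 31.8 with the suffixes swapped.

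Barcodes were kept with 200 genes or more, a mitochondrial share below 10% and a total above 500 but below 20000 UMIs. They were clustered in scanpy 1.11.5 (Louvain with igraph 0.11.9, 2000 variable genes, 100 principal components, 15 neighbours, resolution 1) without the 9 genes and the other lysosomal lists. A cluster was named where at least 3 markers of a type were in at least 10% of its cells at 2 times the level of other cells. Levels are UMIs summed over a class and library, per 1000000 (CPM). Intervals are exact Poisson or exact conditional (Clopper-Pearson) 95% intervals from scipy 1.17.1. The background share is that of genes with at least 20 UMIs past 2-fold. No doublet caller was run, and a filter on markers of unrelated classes was an alternative. Scripts ran in Python 3.11.15 and were tested on simulated data.

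The 9 genes are described in every class. From each other list (other cathepsins, cystatin family, serine proteases activated by cathepsin C, MHC class II, lysosomal membrane and hydrolases, proton pump, sorting and transcription factors), the 2 highest and 2 lowest ratios among genes with at least 50 UMIs could be named, and the few others named were chosen after their values were seen. A few genes that these rules pick are not reported here. The 3 nearest genes came from Pearson correlation of log2(average CPM + 10) among genes with at least 1000 UMIs. The genes and lists were chosen with earlier results of these data known. Alternatives were other cell filters, clustering settings, scalings and totals, thinning to 500 UMIs, and values within clusters.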

Additional observations from a re-analysis of the deposited data

Results flagged for a closer look

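Ctsd was the only one of the 9 genes whose ratio of Smad3-KO to Smad3-WT lay on opposite sides of 1 in the main myeloid classes with both intervals apart from 1, at 0.718 in neutrophil-like cells and 1.21 in macrophage or monocyte-like cells. The difference between the classes was not tested, since each genotype had 1 library. The first ratio was 0.845 (0.657 to 1.07) in cluster 1 and 0.712 (0.535 to 0.934) in cluster 7. The median ratio over all genes was 0.799 in neutrophil-like and 1.09 in macrophage or monocyte-like cells. The second ratio was 1.62 in cluster 2 and 0.679 in cluster 8, and the median over cells of the second class was 818 CPM in Smad3-WT and 660 in Smad3-KO.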

How the results depend on the processing

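With 1 library per genotype, no replicate could be left out, and no interval covers the spread between mice. No paired analysis was possible because each genotype has 1 library. The lower limit on detection is set by depth, most of all in the 118 Smad3-KO macrophage or monocyte-like and the 25 LLC carcinoma-like cells.

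The summed protease ratio of Smad3-KO to Smad3-WT in neutrophil-like cells (1.27) became 1.16 at resolution 0.1, 1.38 with the doublet filter and again without the immature cluster, 1.36 as a mean over cells and 1.60 with median-of-ratios scaling, reversed to 0.800 within cluster 1 and was 1.39 within cluster 7. In macrophage or monocyte-like cells (1.30) it reversed to 0.821 without a filter on cells, 0.689 at resolution 0.1 and 0.774 within cluster 8, and was 1.79 within cluster 2, 1.43 with 30 principal components, 1.76 with the doublet filter, 1.505 as a mean over cells, 1.35 with totals without mitochondrial and ribosomal protein genes and 1.25 with median-of-ratios scaling. The Cst3 ratio in neutrophil-like cells (0.302) became 0.232 with the doublet filter, 0.380 with median-of-ratios scaling and 0.657 within cluster 1, and reversed to 1.10 within cluster 7. In macrophage or monocyte-like cells (0.795) it reversed to 1.74 without a filter, 1.44 at resolution 0.1 and 1.0045 with 30 principal components, and was 0.723 as a mean over cells, 0.937 within cluster 2 and 0.666 within cluster 8. At resolution 0.1 the class took in 95 Smad3-WT and 113 Smad3-KO dendritic-like cells, and without a filter 63 and 67. The doublet filter left 586 of 1089 Smad3-WT and 37 of 118 Smad3-KO cells in this class, and 1612 of 1821 and 897 of 1078 neutrophil-like cells. The cause of the change with 30 principal components was not tested.

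Single genes reversed in macrophage or monocyte-like cells at resolution 0.1 (Ctsb 0.898, Ctsd 0.605, Ctss 0.970, Lgmn 0.840), without a filter (Ctsd 0.766, Lgmn 0.975) and within cluster 8 (Ctsb 0.921, Ctsd 0.679, Ctss 0.965, Lgmn 0.949), in neutrophil-like cells within cluster 1 (Ctsb 0.918, Ctsz 0.592, Lgmn 0.292), and in dendritic-like cells with Siglech (Cst3 3.92, from 4 Smad3-WT cells), without Siglech (Ctsl 0.525) and within cluster 12 (Ctsl 0.239, Ctss 1.085). Reversed here means only that the ratio crossed 1. The intervals of these within-cluster ratios included 1 except for Ctsd in cluster 8 and Ctsz in cluster 1. Lgmn in cluster 1 had 1 UMI in Smad3-KO and 43 in Smad3-WT. The Cst3 ratio in dendritic-like cells (0.444) was 0.604 within cluster 10, 0.204 within cluster 12, 0.478 without Siglech, 0.201 with Cd209a but without Siglech and 0.290 with Fscn1. The protease ratio of macrophage or monocyte-like to neutrophil-like cells (3.75) was 3.60 without a filter, 3.12 at resolution 0.1, 3.88 with 30 principal components, 4.06 with the doublet filter, 3.56 as a mean over cells and 4.30 with the reduced totals, and the Cst3 ratio (2.56) was 3.51, 3.70, 2.32, 2.74, 2.36 and 2.93. The within-cluster and Siglech values were chosen after seeing the data. Another seed, the MetaCell filter and clustering with the lysosomal genes moved none of these 6 ratios beyond their intervals.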
